A study of Sus scrofa with 48 samples.

Results

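The data compared here are the hypothalamus libraries of low growth piglets on day 39 and on day 7. They were chosen by tissue, growth class and day from the submitters' labels, and make up 12 of the 48 RNA-seq libraries of the study, 6 from day 39 and 6 from day 7. The study profiled ileum and hypothalamus of pigs (Sus scrofa) that grew poorly or well after weaning, on both days. The labels sort piglets by average daily gain between day 0 and either sampling day, so the low growth class rests on a longer window on day 39 than on day 7. No strain, genotype, sex, litter, pen or diet is given, and no drug or diet treatment is named for any group. The high growth hypothalamus libraries, 6 from day 39 and 6 from day 7, enter the same model and serve for comparison. Each library is labelled as polyA RNA of hypothalamus, so the values mix all cell types of the dissected piece. As nothing says whether libraries of a group share a litter or pen, p-values measure only the spread between these samples.

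The hypothalamus is the part of the brain that sets hunger, water balance, growth, reproduction and the stress response. Its neurons release peptides into the pituitary stalk or onto other neurons: NPY and AGRP neurons of the arcuate nucleus promote feeding, neurons of the lateral hypothalamus make melanin-concentrating hormone and orexin, and large neurons of the paraventricular and supraoptic nuclei make vasopressin and oxytocin. It lies on the floor of the third ventricle, next to the pituitary and the meninges, and red cells left in its vessels add their own RNA to a dissected sample.

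Estimated counts summed to between 14884140 and 18068586 per low growth library. Some libraries stood apart from the rest, so results are given with and without A030. For most gene lists the span of the median is also given, which is its lowest and highest value over the 12 fits that each leave out 1 low growth library. Day 39 replicate 3 (library A030) held 749 CPM (counts scaled to a common library total and composition) of CRX, the master transcription factor of pinealocytes and photoreceptors, which lay at or under 0.136 CPM in the other 11 libraries. It also held 1552 CPM of ASMT and 301 CPM of AANAT, the enzymes that make melatonin, and only 0.718 CPM of GAD1 and 0.299 CPM of GAD2, the enzymes that make GABA. Its highest Spearman correlation with another library was 0.9315, against 0.9856 for the closest pair. Day 39 replicate 1 (library A027) held 3602 CPM of CGA, the shared subunit of pituitary glycoprotein hormones, which lay at or under 0.85 CPM in the other 11.

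The label was also checked against transcription factors that define hypothalamic nuclei. SIM1 and OTP, which specify the paraventricular nucleus, were both under 1 CPM in 3 of 6 day 39 libraries (replicates 3, 4 and 5) and in 3 of 6 day 7 libraries (replicates 1, 2 and 5). SIM1 ranged from 0 to 17.8 CPM on day 39 and from 0.271 to 7.81 CPM on day 7. NR5A1, which marks the ventromedial nucleus, reached 23.4 CPM in day 39 replicate 1 and 27.9 CPM in day 7 replicate 6, and lay at or under 1.41 CPM in the other 10. The levels of factors that define nuclei thus differed widely between libraries of the same group. The mean log2 CPM over the 27 matched hypothalamic transcription factors ran from -1.23 to 2.53 on day 39 and from -0.49 to 2.73 on day 7. EIF1AY, a Y-linked gene, was at 1 CPM or more in 0 of 6 day 39 libraries and in 2 of 6 day 7 libraries, so the days also differ in how many libraries carry Y-linked RNA. KDM5D, a further Y-linked gene, had the same pattern, and with a Y-linked term in the model edgeR called 9 genes, the 5 given next among them.

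**Figure D1:**
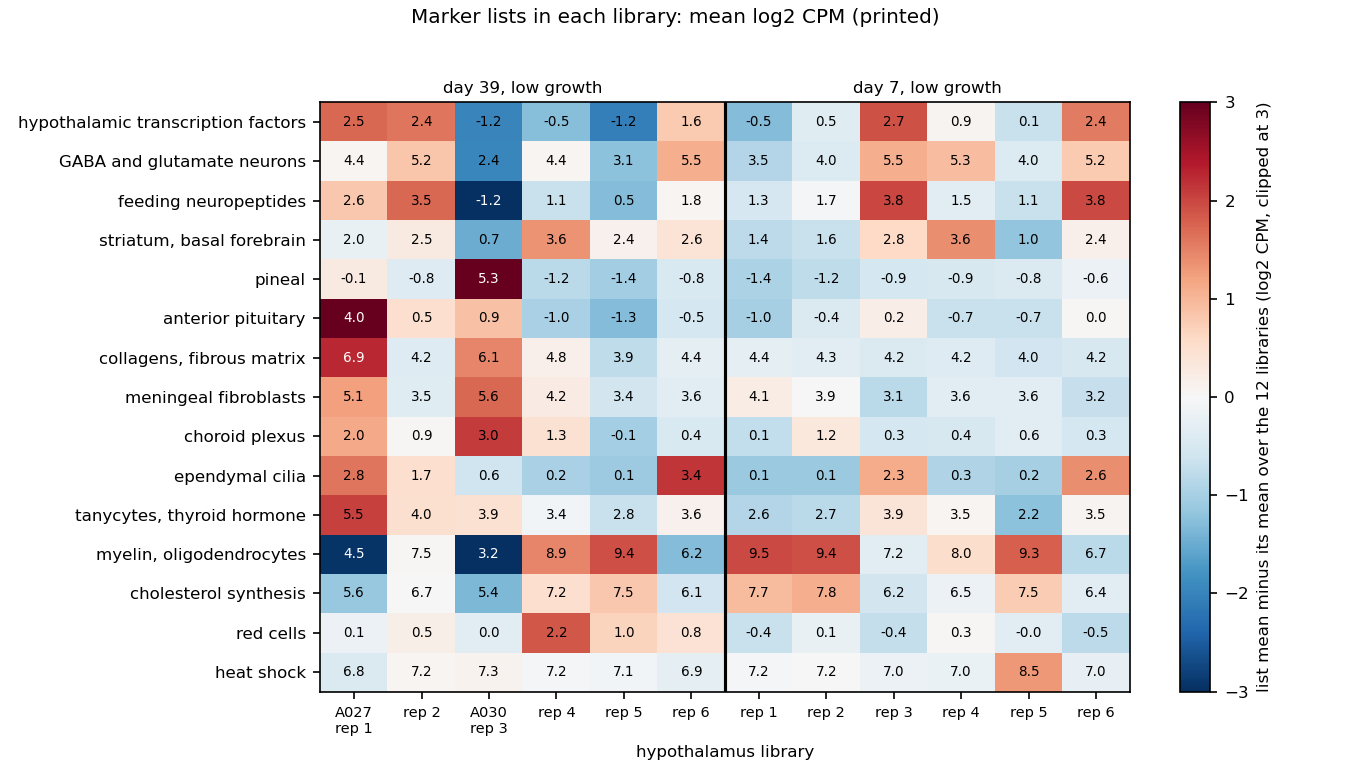
Mean log2 CPM over 15 marker lists (rows) in the 6 day 39 and 6 day 7 low growth libraries (columns), printed in each cell. Colour gives the mean minus the list's mean over the 12 libraries. The pineal list is at 5.34 in A030 and at most -0.13 elsewhere, and the pituitary list is at 3.96 in A027.

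Few genes differed between the days beyond the spread of the libraries. Among those that passed the test given next, the largest rises were in ALAS2 and HBB, genes of red blood cells. Some genes that did not pass had larger log2 fold changes, such as SLCO1C1 at 4.71. In edgeR's quasi-likelihood test 5 of 15865 genes (0.0315%) passed at a Benjamini-Hochberg adjusted p under 0.05. Of these 4 rose on day 39 (ALAS2, HBB, NR3C2 and 1 gene without a symbol) and 1 fell (ARID3C). Without A030 5 of 16016 genes passed (0.0312%), and they were the same 5. At an unadjusted p under 0.05 there were 1599 genes (10.1%) higher and 1132 genes (7.14%) lower on day 39, and without A030 1064 (6.64%) and 1042 (6.51%). All 6 day 39 libraries lay above all 6 day 7 libraries for 54 genes (0.34%) and below them for 53 genes (0.334%), and all 5 called genes were among these.

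ALAS2, the first enzyme of haem synthesis in red cell precursors (ENSSSCG00000012347, Sscrofa11.1 chromosome X, 47871519 to 47896041), lay between 4.48 and 26.5 CPM on day 39 (median 7.58), against 0.866 to 1.44 CPM on day 7 (median 1.1). The groups did not overlap, and A030 at 5.27 CPM sat among the lower day 39 libraries. Its log2 fold change was 3.19 ± 0.43 (SE, 6 libraries a group; edgeR's quasi-likelihood test, adjusted p = 0.00295), and 3.32 ± 0.43 without A030. HBB, a beta-type globin chain (ENSSSCG00000014725, chromosome 9, 4800683 to 4801941), lay between 215 and 1726 CPM on day 39 (median 398), against 22.7 to 102 CPM on day 7 (median 71.3). Replicate 4 was the highest day 39 library for both genes. HBB rose by 3.12 ± 0.52 on the log2 scale (edgeR, adjusted p = 0.0218), or 3.24 ± 0.53 without A030. Reads of near-identical globin genes can be shared by the authors' estimator, so the level of a single globin is uncertain.

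ENSSSCG00000007978, which the tables used here give no symbol, rose by 2.79 ± 0.48 (edgeR, adjusted p = 0.0244) and ran from 81.2 to 766 CPM on day 39 and from 12.3 to 54.7 CPM on day 7. HBM, an alpha-type globin, and AHSP, the chaperone of free alpha globin, did not pass in edgeR in low growth, while DESeq2 called both (adjusted p = 0.00338 for HBM and 0.00693 for AHSP). They were named after their values were seen. HBM had a median of 1.26 CPM on day 39 and 0.246 CPM on day 7 (log2 fold change 2.55 ± 0.57, adjusted p = 0.087), and AHSP of 0.82 and 0.132 CPM (2.42 ± 0.54, adjusted p = 0.087). Of the 6 tested red cell genes 4 lay above 0 with a median of 2.48 (2.56 without A030, span 1.81 to 2.893). Over all genes 51.7% lay above 0 with a median of 0.015. At an unadjusted p under 0.05 in edgeR 4 of the 6 were higher and 1 was lower, or 4 and 0 without A030. The list thus did not rise as a whole in low growth, while in high growth 6 of 6 lay above 0 with a median of 3.28. In low growth the red cell list summed to 249.9 to 1816 CPM on day 39 and to 103.5 to 159.6 CPM on day 7. HBB alone averaged 600.5 CPM on day 39 and 69.16 CPM on day 7, so these sums are not separate from its call. In bulk tissue more red cells and more of this RNA per cell cannot be told apart.

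NR3C2 encodes the mineralocorticoid receptor, which binds aldosterone and, in brain, the glucocorticoids (ENSSSCG00000037766, chromosome 8, 80303172 to 80669050). It lay between 25.4 and 35 CPM on day 39 (median 26.7), against 14.1 to 21.6 CPM on day 7 (median 17). A027 held the highest value, and the other 5 day 39 libraries lay between 25.4 and 28 CPM. The gene rose by 0.70 ± 0.12 (edgeR, adjusted p = 0.0218) and by 0.70 ± 0.12 without A030 (adjusted p = 0.0425). ARID3C, a gene of the ARID family of DNA-binding proteins (ENSSSCG00000010971, chromosome 10, 32171233 to 32187239), lay between 0.12 and 0.714 CPM on day 39 and between 1.02 and 3.4 CPM on day 7. Its log2 fold change was -2.39 ± 0.40 (edgeR, adjusted p = 0.0218) and -2.20 ± 0.39 without A030. This gene is near the detection limit in every day 39 library, and it was named after its values were seen.

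**Figure D2:**
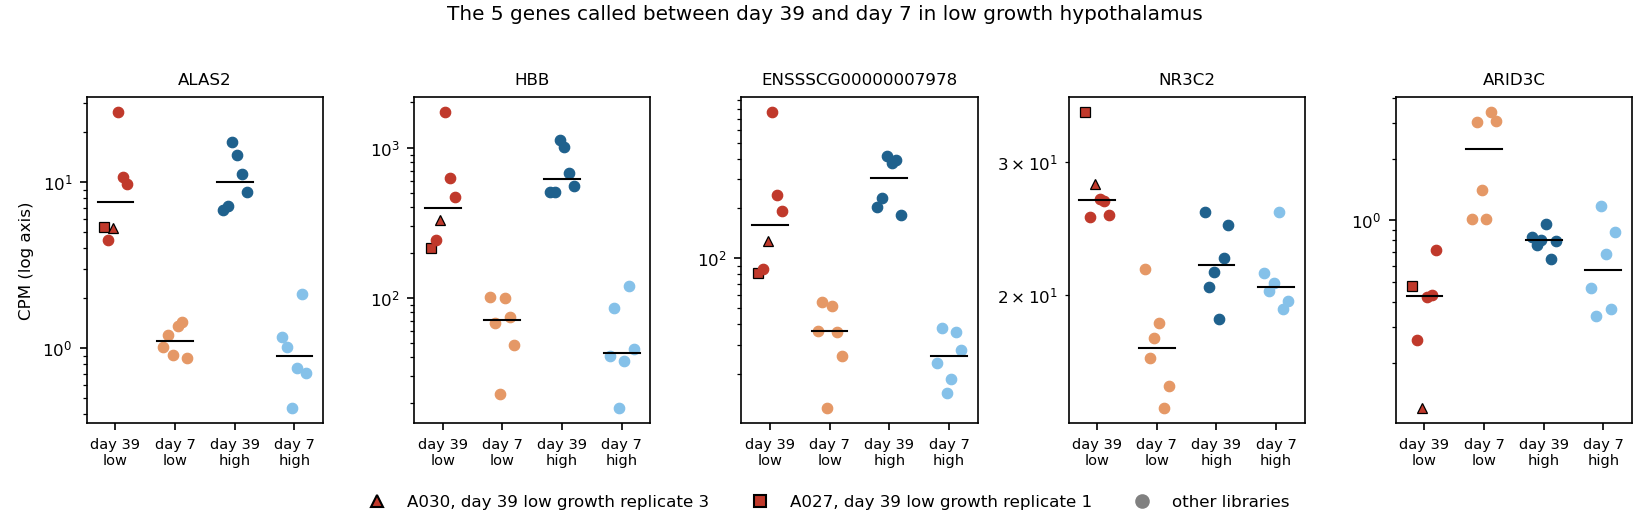
CPM (log axis) of the 5 called genes in each hypothalamus library, with day 39 left of day 7 for low and then for high growth, and black bars at the group medians. In low growth the days do not overlap for any of the 5, while NR3C2 and ARID3C overlap between the days in high growth.

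The calls rest on single libraries to differing degrees. ALAS2 passed in each of 12 fits that left out 1 low growth library (adjusted p between 0.00143 and 0.0195, log2 fold change between 2.65 and 3.34). HBB passed in 7 of the 12, and ENSSSCG00000007978, NR3C2 and ARID3C in 6 each, with highest adjusted p-values of 0.0984, 0.101, 0.0984 and 0.0984. NR3C2 stayed between 0.63 and 0.77 on the log2 scale and ARID3C between -2.63 and -2.20. The libraries whose removal ended all calls but ALAS2 were day 39 replicates 4 and 5 and day 7 replicates 2, 5 and 6. NR3C2 and ARID3C also missed the threshold without A027, and ENSSSCG00000007978 without day 7 replicate 1. With only the 12 low growth libraries in the model, 0 genes passed in edgeR, and 1682 had an unadjusted p under 0.05.

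The same day comparison in high growth pigs called 5 of 15865 genes (0.0315%), and 3 of them were shared: ALAS2, HBB and ENSSSCG00000007978. The rest were HBM and AHSP (edgeR, adjusted p = 0.00741 and 0.0246 in high growth). The high growth day effect was 3.41 ± 0.44 for ALAS2 and 3.65 ± 0.54 for HBB, against 3.19 ± 0.43 and 3.12 ± 0.52 in low growth. NR3C2 was at 21.9 CPM on day 39 and 20.4 CPM on day 7 in high growth (medians), a log2 fold change of 0.07 ± 0.12. ARID3C was at 0.798 and 0.575 CPM, a log2 fold change of 0.28 ± 0.39.

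Nothing can be called particular to low growth from these data. The difference between the low growth and the high growth day effect passed edgeR's test for 0 of 15865 genes. At an unadjusted p under 0.05 there were 1233 genes (7.77%), and 935 of 16016 without A030. DESeq2 called 1 gene for it with all libraries and 0 without A030, and limma voom called 0. Of the genes that carry a symbol, those of lowest p were ARID3C (log2 difference -2.67 ± 0.56, adjusted p = 0.627 in edgeR), SLC6A4, the serotonin transporter, and DLGAP5, a spindle protein. For NR3C2 the difference was 0.62 ± 0.17 (adjusted p = 0.627), and for ALAS2 -0.22 ± 0.57 (adjusted p = 0.959). SMCHD1, a chromatin silencing factor, lay between 45.5 and 73.2 CPM on day 39 and between 24.7 and 42.5 CPM on day 7 in low growth (log2 fold change 0.64 ± 0.14, adjusted p = 0.087). The low growth days did not overlap for SMCHD1, and it did not pass in edgeR, while DESeq2 called it with and without A030 (adjusted p = 0.00463 and 0.0207).

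**Figure D3:**
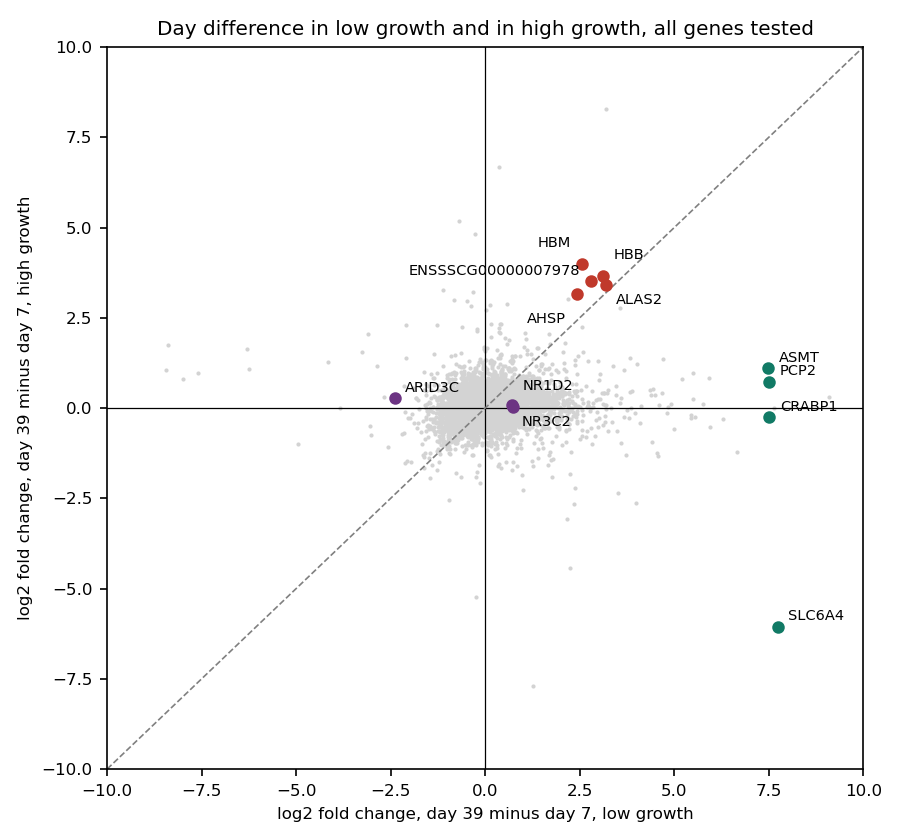
Log2 fold change of day 39 minus day 7 in low growth (x axis) and in high growth (y axis) for the genes tested (grey points), with a dashed line where both are equal. ALAS2, HBB, HBM, AHSP and ENSSSCG00000007978 (red) are high in both growth classes and all lie above the line, HBM the farthest. NR3C2, NR1D2 and ARID3C (purple) lie near 0 in high growth, and genes carried by A030 (green) lie far right.

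A second tool gave a far longer list from the same counts. DESeq2 called 522 genes (3.29%), 343 higher and 179 lower on day 39, and without A030 it called 200 (1.25%), 105 higher and 95 lower. Of these, 152 were called both with and without A030, and all 5 genes of edgeR were among the calls of both DESeq2 fits. DESeq2 gave some genes no adjusted p, and those could not be called.

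Several genes with narrow spread came close to the threshold of edgeR and are given here after their values were seen. MARCHF7, a ubiquitin ligase, had medians of 46.1 CPM on day 39 and 28.3 CPM on day 7 (log2 fold change 0.73 ± 0.14, adjusted p = 0.057 in edgeR), and it passed in 4 of the 12 fits that left out 1 library. NEBL, an actin-binding protein of the nebulin family, had medians of 175 and 100.2 CPM, with A030 at 90.1 CPM below 5 of the 6 day 7 libraries. Without A030 its log2 fold change was 0.79 ± 0.16 (adjusted p = 0.0957). ACAD11, which breaks down fatty acids, was at 0.76 ± 0.14 without A030 (adjusted p = 0.0543). PTGR2, which reduces prostaglandin metabolites, and ZNF770, a zinc finger protein, each had day 39 libraries all above the day 7 ones, at 0.63 ± 0.13 and 0.64 ± 0.13 (adjusted p = 0.087 for both). All 5 were called by DESeq2 with and without A030.

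Feeding and hormone peptides ranged widely between libraries of the same day, and none passed in edgeR or DESeq2. At an unadjusted p under 0.05 in edgeR 2 of 17 feeding peptides were lower and 2 of 16 endocrine peptide genes were higher. Over all genes 7.14% were lower and 10.1% higher at that p, so these small counts lie near the shares of all genes. PMCH encodes the precursor of melanin-concentrating hormone, made by neurons of the lateral hypothalamus. It was at 3.54, 685, 0.239, 2.04, 5.63 and 1.73 CPM in day 39 replicates 1 to 6, and at 269, 288, 299, 5.44, 201 and 231 CPM in day 7 replicates 1 to 6. Thus 5 of 6 day 39 libraries held under 6 CPM and 5 of 6 day 7 libraries held over 200 CPM, with 1 exception on each day, and the groups overlapped. The log2 fold change was -0.89 ± 1.30 (edgeR, adjusted p = 0.769), and without day 39 replicate 2 it was -6.35 and passed (adjusted p = 0.0378).

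HCRT, the orexin precursor made by neighbouring neurons, was at 11.7, 309, 3.65, 2.46, 4.45 and 10.2 CPM on day 39 and at 48.4, 91, 377, 6.23, 72.2 and 130.7 CPM on day 7. The same day 39 replicate 2 and day 7 replicate 4 were the exceptions as for PMCH. Its log2 fold change was -1.09 ± 1.12 (adjusted p = 0.658 in edgeR), -4.21 without day 39 replicate 2 and -0.29 without day 7 replicate 3. SLC17A6, the vesicular glutamate transporter that many of these neurons use, ranged from 5.69 to 176 CPM on day 39 and from 45.3 to 141.7 CPM on day 7. The part of dissection differences between libraries in these values was not tested.

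AVP, the vasopressin gene, ran from 1.69 to 2231 CPM on day 39 (median 39.7) and from 14.5 to 215 CPM on day 7 (median 73.1). OXT, the oxytocin gene, ran from 0.454 to 1753 CPM on day 39 (median 33.5) and from 0.458 to 175 CPM on day 7 (median 95.9). Both genes were highest in day 39 replicate 6, where SIM1 and OTP were also highest. Their log2 fold changes were 2.13 ± 1.78 and 1.99 ± 1.81 (adjusted p = 0.571 and 0.609 in edgeR), and -1.14 and -0.57 without that replicate. CRH, which drives pituitary release of corticotropin, had medians of 0.483 CPM on day 39 and 1.63 CPM on day 7, a log2 fold change of -0.05 ± 1.34 (adjusted p = 0.989).

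Arcuate peptides were highest in A027, the library with pituitary genes. AGRP was at 32.4 CPM there and at most 4.15 CPM in the other day 39 libraries, against 0 to 5.43 CPM on day 7. GHRH, the growth hormone releasing hormone, was at 27.4 CPM there and at most 0.908 CPM in the other day 39 libraries, against 0.0566 to 3.58 CPM on day 7. NPY had medians of 2.86 CPM on day 39 and 2.1 CPM on day 7 (log2 fold change 1.71 ± 0.92, edgeR adjusted p = 0.344; 1.98 ± 0.81 without A030, adjusted p = 0.303). Leaving out A027 gave log2 fold changes of -0.28 for AGRP, -1.69 for GHRH and 0.72 for NPY.

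CARTPT, the precursor of a peptide that curbs feeding, had medians of 27.3 and 18.8 CPM on day 39 and day 7. SST, the somatostatin gene, had medians of 74 and 54.6 CPM, and GNRH1, the gonadotropin releasing hormone gene, of 0.424 and 0.524 CPM. Their log2 fold changes lay between 0.10 and 1.37, with adjusted p-values of 0.559 to 0.974 in edgeR. Of the 17 tested feeding peptides 5 lay above 0 with a median of -0.28 (-0.052 over 18 genes without A030, span -0.854 to 0.152). Of the 16 endocrine peptide genes 13 lay above 0 with a median of 0.85 (0.46 without A030, 0.365 without A027, span 0.365 to 1.214). NPB and NPW, ligands of the same receptors, were the feeding peptides of lowest p. NPB lay between 0.239 and 0.649 CPM on day 39 and between 0.656 and 0.923 CPM on day 7, without overlap (-0.86 ± 0.36, adjusted p = 0.215).

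**Figure D4:**
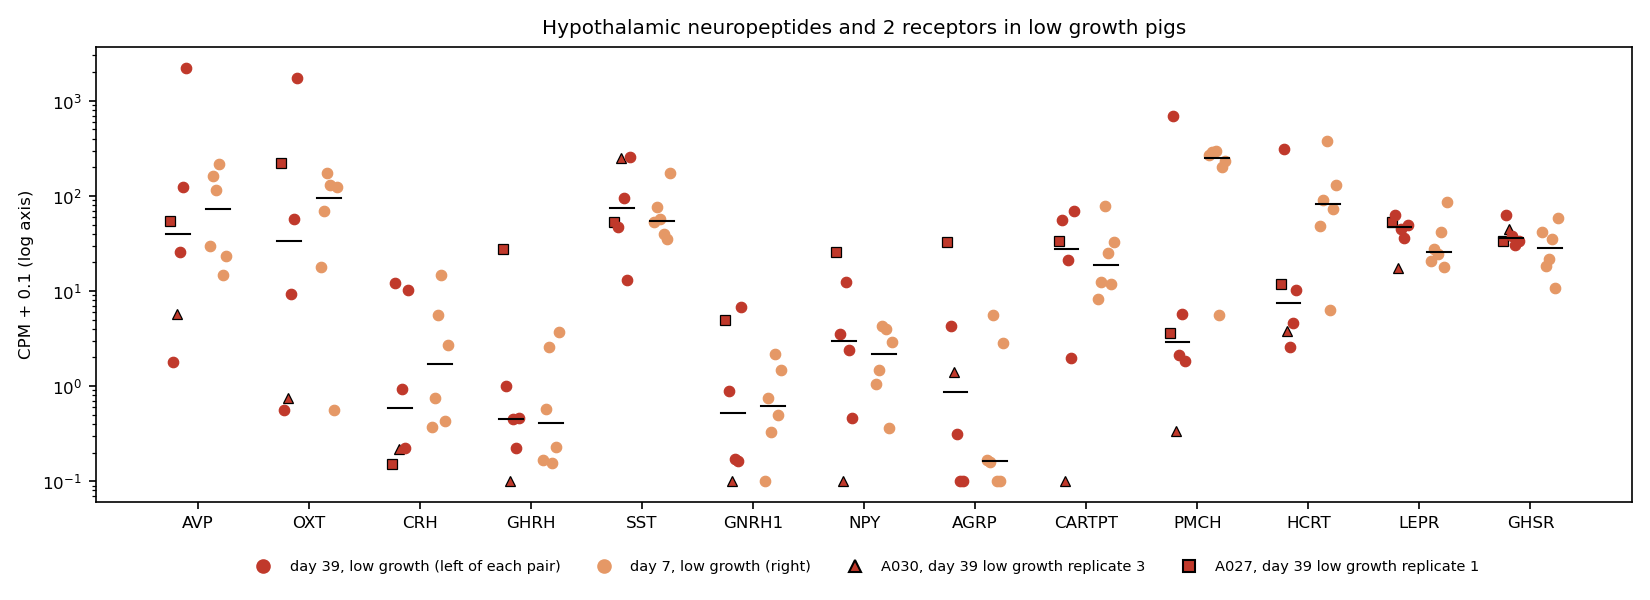
CPM plus 0.1 (log axis) of hypothalamic peptide genes and of LEPR and GHSR in each low growth library, day 39 left and day 7 right, with black bars at the medians. PMCH and HCRT are low in 5 of 6 day 39 libraries and in 1 of 6 day 7 libraries, and A027 is the highest library for GHRH, NPY and AGRP.

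Most receptors for feeding signals lay above 0. LEPR, the leptin receptor, lay between 17.5 and 62.1 CPM on day 39 (median 47.1) and between 17.9 and 86.8 CPM on day 7 (median 25.9), with A030 the lowest day 39 library. Its log2 fold change was 0.26 ± 0.32, and 0.43 ± 0.30 without A030 (adjusted p = 0.715 and 0.568 in edgeR). GHSR, the ghrelin receptor, had medians of 35.9 and 28.5 CPM (0.40 ± 0.36, adjusted p = 0.604), and NPY1R, a receptor of NPY, of 11.8 and 5.84 CPM (1.23 ± 0.47, adjusted p = 0.183). Of 27 tested receptors and their signalling genes 19 lay above 0, with a median of 0.25 (0.37 without A030, span 0.086 to 0.379). In edgeR 0 passed and 1 was higher at an unadjusted p under 0.05, against 10.1% of all genes, and DESeq2 called 0.

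In the growth hormone and IGF axis GHR, the growth hormone receptor, lay between 5.19 and 23.5 CPM on day 39 (median 9.74) and between 2.51 and 7.85 CPM on day 7 (median 4.42). The day 39 values overlapped the upper part of the day 7 range, and A027 was highest. The log2 fold change was 1.24 ± 0.35, and 1.22 ± 0.37 without A030 (adjusted p = 0.117 and 0.197 in edgeR). IGFBP5, a binding protein of the insulin-like growth factors, had medians of 60.7 and 26.8 CPM (1.87 ± 0.63, adjusted p = 0.149, and 0.90 without A027). DESeq2 called both genes with all libraries and neither without A030. Of the 18 tested genes of the axis 13 lay above 0, with a median of 0.38 (0.26 without A030, 0.17 without A027).

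Pineal genes show how far A030 sets the fold changes. Of the 30 matched pineal genes 16 had enough counts to be tested, and all 16 lay above 0 with a median of 4.50, and 12 had an unadjusted p under 0.05. Without A030 11 of 16 lay above 0 with a median of 0.21, and 0 were higher and 3 lower at that p. The list summed to 67.28 to 9321 CPM on day 39, to at most 103 CPM there without A030, and to 58.23 to 98.49 CPM on day 7. The log2 fold change of ASMT was 7.49 ± 1.78 with A030 and 0.44 ± 0.83 without it. That of AANAT was 3.89 ± 1.17 with it and -0.38 ± 0.61 without. SLC6A4, which pinealocytes also express, was at 7.74 ± 2.12 with it and 0.23 ± 1.26 without. No pineal gene passed in edgeR with or without A030, and DESeq2 called SLC6A4 with A030 alone. With A030 DESeq2 gave ASMT and AANAT no adjusted p, so it did not judge them.

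The same library carried several genes of other lists, such as CRABP1, a retinoic acid binding protein, at 6340 CPM, PCP2, a Purkinje cell and bipolar cell protein, at 1232 CPM, SLC17A7, a vesicular glutamate transporter, at 1445 CPM, and ESM1, a secreted endothelial protein, at 278 CPM. In the other 5 day 39 libraries these genes lay at or under 39.8, 1.1, 4.21 and 8.02 CPM. NEUROD1, a transcription factor of pineal and cerebellar neurons, was at 469 CPM in A030 and at most 2.59 CPM in the others. The medians of the cerebellum list (0.82 with A030, 0.28 without) and of the thalamus and cortex list (0.089 and -0.13) moved with this library. In edgeR 0 members of either passed. At an unadjusted p under 0.05 3 of 10 and 3 of 17 were higher, against 10.1% of all genes. DESeq2 called RORA and RORB of the second list with A030 and 0 of it without. With A030 DESeq2 gave CRABP1, PCP2, SLC17A7, ESM1 and NEUROD1 no adjusted p. Monoamine genes had a median of 0.25 with A030 and 0.26 without, but DDC, the enzyme that makes dopamine and serotonin from their precursors, was at 2.83 ± 0.91 with it and -0.02 ± 0.51 without. DESeq2 called DDC with A030 and not without it (adjusted p = 0.0238 and 0.994).

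Anterior pituitary genes followed A027. The pituitary list summed to 37.1 to 7554 CPM on day 39 and to 73.09 to 590.5 CPM on day 7. GATA2, a transcription factor of gonadotrophs and thyrotrophs, was at 75.3 CPM in A027 and at most 9.81 CPM in the other day 39 libraries. TSHB, the thyrotropin subunit, was at 17.2 CPM in A027 and at 0 in the other 5 day 39 libraries, while POU1F1, the factor of somatotrophs, lactotrophs and thyrotrophs, was at or under 0.898 CPM in all 12 libraries. CHGB, a granule protein of endocrine cells, was at 2481 CPM in A027 and had medians of 293 CPM on day 39 and 135.4 CPM on day 7. Of 8 tested pituitary genes 6 lay above 0, with a median of 0.94 (1.03 without A030), and without A027 the median was -0.12. With both A030 and A027 left out edgeR called 3 genes, ALAS2, HBB and ENSSSCG00000007978.

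Genes of collagen and fibrous matrix had their highest means in the same libraries, 6.89 in A027 and 6.10 in A030 (mean log2 CPM), against 3.86 to 4.77 in the other day 39 libraries and 4.05 to 4.37 on day 7. Of 24 tested genes 23 lay above 0 with a median of 1.29, and 14 were higher at an unadjusted p under 0.05, but 0 passed in edgeR with or without A030. Without A030 23 lay above 0 with a median of 1.21, and without A027 the median was 0.57. COL1A2, a chain of type I collagen, was at 743, 85.5, 614, 178, 89.5 and 123.3 CPM in day 39 replicates 1 to 6 and at 72.5, 75.6, 47.6, 76.2, 46.9 and 84.2 CPM in day 7 replicates 1 to 6. A027 and A030 stood far above the rest, yet all day 39 libraries lay above all day 7 ones (2.19 ± 0.61, edgeR adjusted p = 0.11). COL3A1 and COL1A1, further fibrillar collagens, had medians of 51 and 84.3 CPM on day 39 and of 28.9 and 42 CPM on day 7, with overlap. DESeq2 called 7 of the 24 genes with A030 and 0 without. Without A030 it gave COL3A1 and COL15A1, another collagen gene, no adjusted p, at log2 fold changes of 3.09 and 3.58. In high growth the list had a median of -0.099, with 9 of 24 above 0.

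The other lists of tissue at the brain's surface and ventricles followed these libraries too. Meningeal fibroblast genes had a mean log2 CPM of 5.14 in A027 and 5.63 in A030, and of 3.37 to 4.16 in the other 4 day 39 libraries, against 3.11 to 4.13 on day 7. The list had a median of 0.49 (0.295 without A030, span 0.295 to 0.601). Choroid plexus genes lay above 0 in 12 of 13 with A030 (median 1.37) and in 9 of 13 without it (median 0.41). MSX1, a homeobox gene, was at 110.7 CPM in A027, 37.7 CPM in A030 and at most 2.74 CPM in the other day 39 libraries. AQP1, a water channel of the choroid plexus, was at 20.4 CPM in A027 and at most 1.26 CPM in the others. In edgeR 0 meningeal and 0 choroid plexus genes passed. At an unadjusted p under 0.05 5 of 12 and 5 of 13 were higher, against 10.1% of all genes. DESeq2 called MSX1, AQP1 and 5 meningeal genes with A030, and 0 genes of either list without. Without A030 it gave MSX1 and AQP1 no adjusted p. The part of these tissues in the collagen values was not tested.

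Tanycytes, the glia that line the floor of the third ventricle and handle thyroid hormone, were represented by 21 tested genes. Of these 17 lay above 0 with a median of 0.69 (17 and 0.64 without A030, median 0.29 without A027), and 7 were higher and 1 lower at an unadjusted p under 0.05. SLCO1C1, a thyroxine transporter, was at 56.2, 3.57, 35.7, 3.51, 1.24 and 1.43 CPM in day 39 replicates 1 to 6 and at 0.339, 0.119, 1.02, 1.47, 0 and 0.866 CPM in day 7 replicates 1 to 6. A027 and A030 were far above the others, and replicates 5 and 6 lay within the day 7 range. The log2 fold change was 4.71 ± 0.95 (edgeR, adjusted p = 0.087) and 4.35 ± 0.95 without A030 (adjusted p = 0.143). In edgeR it passed without day 39 replicate 6 (4.95, adjusted p = 0.0385). DESeq2 called SLCO1C1 with and without A030 (adjusted p = 2.0e-05 and 0.00081). Of this list it also called FRZB higher with A030, and THRA lower in both fits. RAX, the defining factor of tanycytes, was at 24.2 CPM in A027 and at most 0.539 CPM in the other 11 libraries. Ciliated ependyma genes lay above 0 in 13 of 15, with a median of 0.77 (0.55 without A030), 0.075 without day 39 replicate 6 and 0.495 without A027.

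**Figure D5:**
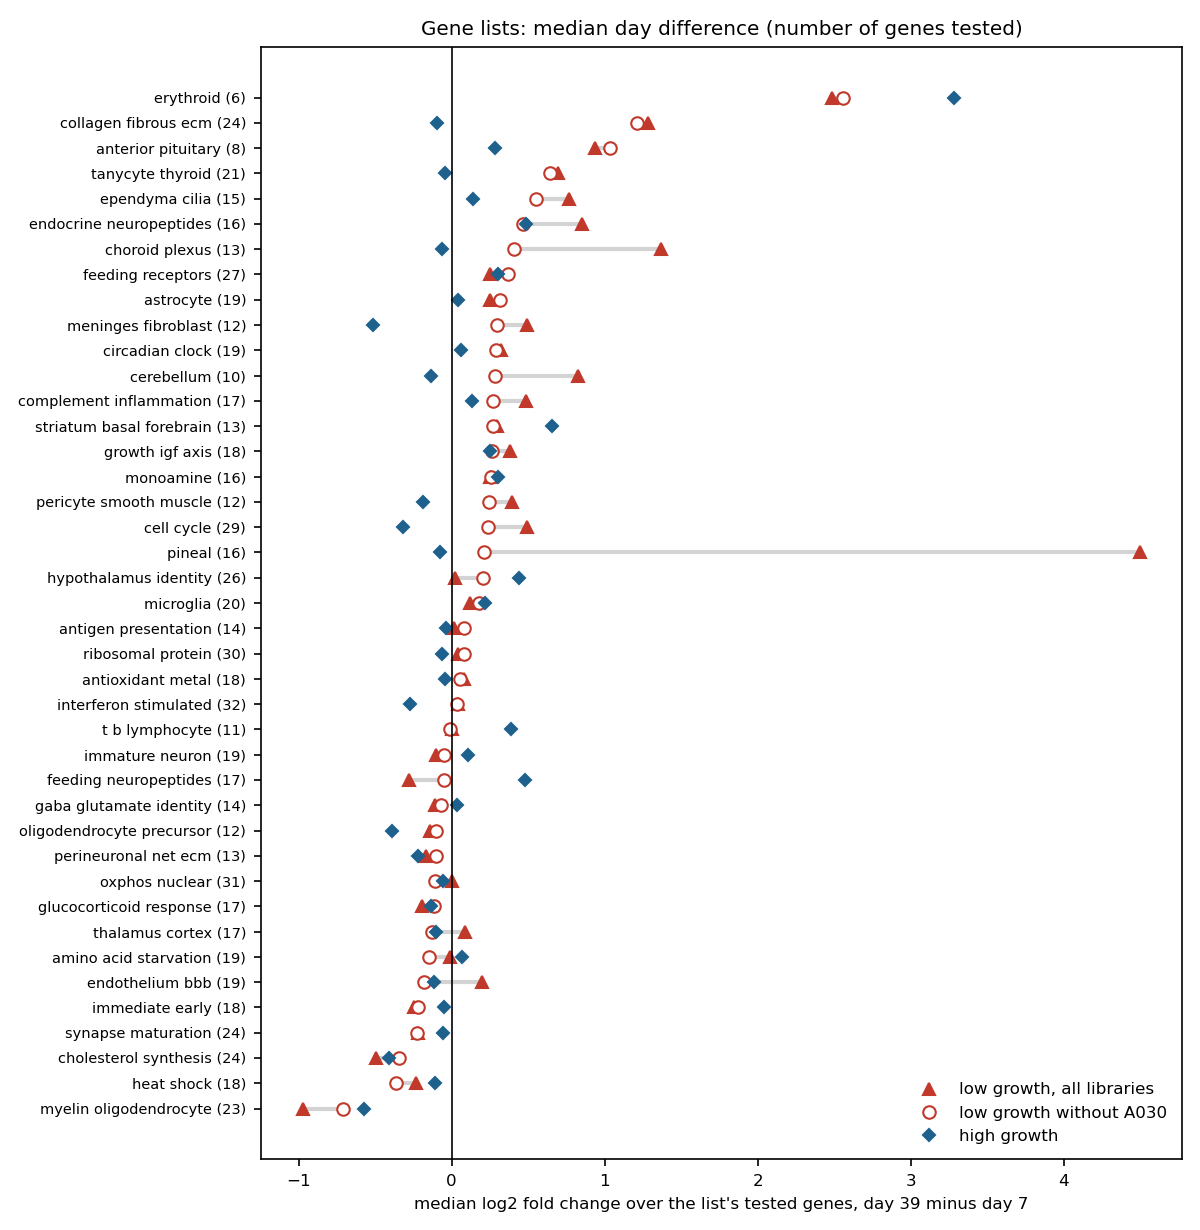
Median log2 fold change of day 39 minus day 7 over the tested genes of 41 lists, for low growth with all libraries (triangles), low growth without A030 (circles) and high growth (diamonds). The pineal list moves from 4.50 to 0.21 when A030 is left out, while the red cell list stays at 2.48 and 2.56.

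Most myelin genes lay below 0, with wide spread between libraries. Of 23 tested myelin and oligodendrocyte genes 1 lay above 0, with a median of -0.97 (4 and -0.71 without A030, span -1.543 to -0.706), and 0 had an unadjusted p under 0.05 or a call in DESeq2. The mean log2 CPM of the list was 3.16 in A030, 4.55 in A027 and 6.18 to 9.42 in the other day 39 libraries, against 6.69 to 9.47 on day 7. SOX10, the transcription factor of the lineage, ranged from 32.6 to 473 CPM on day 39 and from 129.9 to 687 CPM on day 7 (-1.06 ± 0.57, edgeR adjusted p = 0.341). In high growth the median was -0.58, with 1 of 23 above 0.

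CSPG4, the NG2 proteoglycan of oligodendrocyte precursors and pericytes, lay between 13.4 and 26.7 CPM on day 39 (median 19.6) and between 23 and 40 CPM on day 7 (median 30.9). It had the lowest p of its list (-0.66 ± 0.16, edgeR adjusted p = 0.0916), and DESeq2 called it with and without A030. Of 12 tested precursor genes 4 lay above 0 (median -0.14, span -0.265 to -0.031). Cholesterol synthesis, which supplies myelin, lay above 0 in 1 of 24 genes with a median of -0.50 (3 of 24 and -0.345 without A030, span -0.758 to -0.34). TM7SF2, a sterol reductase, had medians of 60.2 and 107 CPM, and SREBF2, the regulator of the pathway, of 409 and 531 CPM (adjusted p = 0.21 and 0.255 in edgeR). With the myelin mean as a covariate edgeR called 8 genes, 4 of the 5 given above among them, and 19 genes, all 5 among them, when A030 was also left out. NR3C2 was the one missing from the 8.

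Neuronal lists differed little in the median. Synapse and channel genes lay above 0 in 10 of 24 (median -0.22, span -0.356 to 0.005) and immature neuron genes in 7 of 19 (-0.10, span -0.191 to 0.004). Perineuronal net genes lay above 0 in 5 of 13 (-0.17, span -0.271 to -0.038), and GABA and glutamate neuron genes in 7 of 14 (-0.11, span -0.42 to 0.148). SCN1A, a channel-forming sodium channel subunit, had medians of 25.1 CPM on day 39 and 48 CPM on day 7 (-0.98 ± 0.38, edgeR adjusted p = 0.191). HAPLN4, a link protein of perineuronal nets, had medians of 70.8 and 133.2 CPM (adjusted p = 0.24). GAD1 ran from 0.718 to 246 CPM on day 39 and from 29.9 to 307 CPM on day 7, and from 45.6 CPM upwards on day 39 without A030. The striatum and basal forebrain list, which would mark tissue beside the hypothalamus, had its highest means in day 39 replicate 4 (3.57) and day 7 replicate 4 (3.62), and a median log2 fold change of 0.29 (span 0.008 to 0.714).

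Astrocyte genes lay above 0 in 13 of 19 with a median of 0.25 (span 0.129 to 0.37), and 2 were higher at an unadjusted p under 0.05, or 7 without A030. CLU, a secreted chaperone, lay between 2512 and 3971 CPM on day 39 and between 1900 and 2613 CPM on day 7 (0.47 ± 0.18, edgeR adjusted p = 0.183). Microglia genes lay above 0 in 12 of 20 (median 0.12, span -0.068 to 0.263). Endothelial and barrier genes had a median of 0.20 with A030 and -0.18 without. Pericyte and smooth muscle genes lay above 0 in 9 of 12 (median 0.39, span 0.184 to 0.492). In edgeR 0 genes of these 4 lists passed, with 5 higher and 2 lower at an unadjusted p under 0.05, and DESeq2 called CSPG4 alone. Over all genes 10.1% were higher and 7.14% lower at that p, so the 4 lists together do not stand out.

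Most clock genes lay slightly above 0 on day 39. Of 19 tested genes 18 lay above 0 with a median of 0.32 (span 0.261 to 0.371), and 9 were higher at an unadjusted p under 0.05. Without A030 14 of 19 lay above 0 with a median of 0.29, and 7 were higher and 1 lower. NR1D2, the REV-ERB beta repressor of the clock (ENSSSCG00000027017, chromosome 13, 10756954 to 10791219), lay between 85.2 and 139.4 CPM on day 39 (median 124.5) and between 48.2 and 89.2 CPM on day 7 (median 75.6). Only day 39 replicate 6 fell within the day 7 range. The log2 fold change was 0.72 ± 0.14 (edgeR, adjusted p = 0.0696) and 0.68 ± 0.14 without A030 (adjusted p = 0.143), against 0.03 ± 0.14 in high growth. In edgeR it passed without day 39 replicate 6 (adjusted p = 0.0262) and without day 7 replicates 1 or 3 (0.0308 and 0.0405). DESeq2 called NR1D2 with and without A030 (adjusted p = 0.00024 and 0.0036). Of the same list it also called RORA and RORB with A030 and BHLHE41 without. RORA, a retinoid-related activator of the clock, was at 45.5 CPM in A030 and at most 9.12 CPM in the other day 39 libraries. The time of day of sampling is not given in the sources used here, so an effect of it and an effect of age cannot be told apart.

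The list of glucocorticoid receptors and target genes, which holds NR3C2, had a median below 0 that changed sign without day 7 replicate 5. Of 17 tested 7 lay above 0 with a median of -0.19 (-0.12 without A030, span -0.277 to 0.093). At an unadjusted p under 0.05 in edgeR 3 were higher and 1 lower, or 2 and 2 without A030. The shares over all genes were 10.1% and 7.14%, or 6.64% and 6.51% without A030. NR3C2 was the only one to pass in edgeR, and DESeq2 also called NR3C1, the glucocorticoid receptor, without A030. KLF15, a glucocorticoid target, had medians of 20.4 CPM on day 39 and 31.2 CPM on day 7 (-0.65 ± 0.25, edgeR adjusted p = 0.188, and -0.35 without day 7 replicate 5). Immediate early genes, which respond to neuronal activity and handling, lay above 0 in 6 of 18 (median -0.24, span -0.326 to -0.105).

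Heat shock genes lay above 0 in 2 of 18, with a median of -0.23 (-0.36 without A030). DNAJB1, a partner of HSP70, was at 319.7 CPM in day 7 replicate 5 and between 76.1 and 124.6 CPM in the other day 7 libraries, against 76.8 to 92.2 CPM on day 39 (-0.73 ± 0.23, edgeR adjusted p = 0.132, and -0.305 without that library). HSPB1, a small heat shock protein, was at 391 CPM in the same library, with medians of 100 and 135.8 CPM. Without that library the median of the list was 0.005. Amino acid starvation genes had a median of -0.012 (span -0.148 to 0.118), and TRIB3, a target of this response, had day 39 values above every day 7 value once A030 was left out (0.79 ± 0.30, adjusted p = 0.268).

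Cell cycle genes lay above 0 in 27 of 29 with a median of 0.50, and in 24 of 29 with a median of 0.23 without A030. KIF23, a kinesin of cytokinesis, was at 15 CPM in A030 and at 2.6 to 5.65 CPM in the other day 39 libraries, against 1.81 to 3.34 CPM on day 7 (0.50 ± 0.21 without A030, edgeR adjusted p = 0.32). DESeq2 called KIF23 with A030 and not without it (adjusted p = 0.0432 and 0.189). In high growth 3 of 29 lay above 0 with a median of -0.32, and the difference between the growth classes passed for 0 genes, as given above.

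Most housekeeping and immune lists lay near 0. Nuclear genes of oxidative phosphorylation had a median of 0.002 (-0.11 without A030). CYC1, a subunit of complex III, lay between 92.8 and 129.8 CPM on day 39 and between 130.0 and 171 CPM on day 7. The days thus narrowly did not overlap (-0.33 ± 0.11, edgeR adjusted p = 0.14). DESeq2 called CYC1 with A030 and not without it (adjusted p = 0.0484 and 0.0749). Ribosomal protein genes had a median of 0.039, antigen presentation genes of 0.017, lymphocyte genes of 0.0 and antioxidant and metal genes of 0.082. Interferon-stimulated genes had a median of 0.041 (span -0.158 to 0.56). Complement and inflammation genes lay above 0 in 13 of 17 with a median of 0.49 (0.27 without A030), and LCN2, an iron-binding acute phase protein, was at 46.4 CPM in A030 and 10.6 CPM in A027, with a day 7 maximum of 2.64 CPM. DESeq2 called LCN2 with A030 and not without it (adjusted p = 0.0131 and 0.211). HLA-DRA, a class II antigen-presenting chain, had medians of 24.2 and 10.7 CPM on day 39 and day 7 (1.89 ± 0.86, adjusted p = 0.262).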

How the data were processed

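The values used are estimated counts by gene and library, as the authors deposited them, and 53.0% of them were not whole. Per the submitters' processing notes Trim Galore, kallisto and DESeq2 were used, with the Sscrofa11.1 build and with no version stated. A normalized table the authors also deposited holds the same counts times 1 factor per library and was not used. The expected counts were rounded to whole numbers, a move of at most 0.5. The table holds 22924 genes, 14894 with a symbol.

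The 24 hypothalamus libraries were fitted together with edgeR 4.0.16 in R 4.3.3. TMM scaling, filterByExpr (count at least 10, total at least 15), the quasi-likelihood test and Benjamini-Hochberg adjustment at 0.05 were used. Contrasts were day 39 minus day 7 in low growth, the same in high growth, and their difference. Prior count was 1 for CPM on the log2 scale. DESeq2 1.42.0 and limma 3.58.1 served as alternatives. The scripts were tested on simulated data. No pair of libraries was identical.

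Genes were taken from 42 lists (749 of 883 genes matched by symbol) and by a rule: called genes with and without A030, the lowest p of each list up to 2 where fewer than 2 passed, fixed peptides and receptors, and the 5 lowest p of the difference. TRH, POMC, KISS1, TAC3 and MC4R were not matched, and a few genes the rule names are not reported here. The members, lists and rule were chosen with earlier results of these data known. Coordinates come from RefSeq genes of Sscrofa11.1, matched by symbol. No sequence is used here. Depth limits precision mainly for genes near 1 CPM.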

Additional observations from a re-analysis of the deposited data

Results flagged for a closer look

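Each value below stood apart from the other 5 libraries of its group by Dixon's test at 95% on the log2 scale. Of 298 groups of 6 libraries tested 32 held such a value, 18 of them in A030, while chance marks about 1 in 20 groups. Many of the genes were chosen with values of A030 known or by low p, so the number cannot be read against that share. No cause was tested.

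In A030 (day 39 replicate 3) the high values were 6340 CPM for CRABP1, 1552 CPM for ASMT, 1445 CPM for SLC17A7, 1232 CPM for PCP2, 713.5 CPM for SLC6A4, 611.1 CPM for DDC, 371.5 CPM for C2, 301.4 CPM for AANAT, 73.2 CPM for GSR and 45.54 CPM for RORA. The low values were 90.13 CPM for NEBL, 10.77 CPM for SIK1, 4.13 CPM for HMOX1, 1.436 CPM for TRIB3, 0.7182 CPM for GAD1 and 0.2992 CPM for GAD2. Its mean log2 CPM was high for the pineal list (5.34) and the endothelial list (5.91). In A027 (day 39 replicate 1) GATA2 at 75.28 CPM and NR3C2 at 34.95 CPM were high. In day 39 replicate 2 HCRT was high at 308.9 CPM.

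On day 7, replicate 5 was high for DNAJB1 (319.7 CPM), for the heat shock list (mean log2 CPM 8.49) and for the amino acid starvation list (4.8). Replicate 3 was low for KIF23 (1.81 CPM) and the cell cycle list (0.81). Replicate 4 was low for PMCH (5.437 CPM) and TNC (47.01 CPM). Replicate 1 was low for HAPLN4 (57.04 CPM) and NEUROD1 (0 CPM). Replicate 6 was high for NPB (0.9234 CPM) and low for the endothelial list (3.93).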

How the results depend on the processing

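The count of 5 genes between the days in low growth moved to 522 with DESeq2, 200 with DESeq2 without A030, 0 with the 12 low growth libraries alone (1682 at an unadjusted p under 0.05), 0 with these without A030 (1349), 3 without A030 and A027, 8 with a myelin covariate, 19 with that covariate and without A030, and 9 with a Y-linked term. The DESeq2 fit without A030, the fit without both libraries, the myelin covariate and the Y-linked term were chosen after seeing the data. Leaving out 1 library gave 1 to 10. It stayed at 5 or 6 with RLE scaling, limma voom, robust estimation and no filter on low counts. The 0 genes for the difference between growth classes became 1 with DESeq2 and stayed 0 without any single library. The cause of these moves was not tested.

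In the fits counted at the end of this paragraph, the log2 fold changes that changed sign did so when 1 library was left out. They ranged from -0.19 to 1.38 for GATA2, -0.53 to 6.93 for SLC17A7, -0.49 to 7.78 for PCP2, -0.20 to 1.89 for TBX3, -0.017 to 3.22 for DDC, -0.42 to 3.401 for C2, -1.14 to 2.56 for AVP, -0.57 to 2.32 for OXT, -0.84 to 1.05 for CRH, -1.69 to 2.89 for GHRH, -0.28 to 3.45 for AGRP, -0.33 to 0.74 for CARTPT, -0.38 to 4.16 for AANAT, -0.57 to 0.18 for GAD1, -0.93 to 0.13 for GAD2, -0.54 to 1.81 for SIM1, -4.23 to 2.62 for NR5A1 and -0.058 to 0.71 for DRD1. The counts of single-gene values leave out both DESeq2 fits, limma voom, the fit without A030 and A027, the myelin covariate and the Y-linked term. They also leave out the low growth libraries alone without A030. Among the single-gene values counted, 1588 kept direction and side of the threshold, 29 changed sign, 10 newly passed and 28 no longer passed.

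The Y-linked list had no value with the 12 low growth libraries alone. No paired analysis was possible because the labels give the libraries no shared replicate numbers. Dissection, sex, litter and time of day are not given, and the growth window differs between the days. Depth limits genes near 1 CPM, such as ARID3C.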
